A study of Mus musculus with 2 samples.

Results

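Complement is a set of plasma and cell-made proteins that marks particles, microbes and dying cells for uptake and signals to white blood cells. The 8 genes described here are C1qa, C1qb, C1qc, C3, Cfb, Cfp, C3ar1 and C5ar1, taken by symbol from the 31053 genes of the count tables, where each symbol occurred once. All 8 were measured in lung immune cells of 2 mouse libraries.

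The C1qa, C1qb and C1qc chains assemble into C1q, which binds antibody complexes and dying cells and starts the classical pathway. C3 is the central protein of the cascade: its cleavage yields C3b, which tags surfaces, and the peptide C3a. Cfb (factor B) and Cfp (properdin) form and stabilise the alternative pathway enzyme that cleaves more C3, while C3ar1 and C5ar1 are the receptors through which C3a and C5a activate myeloid cells. Most plasma complement comes from liver, whereas tissue macrophages are a known source of C1q.

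The study sorted CD45+ cells (white blood cells) from perfused, digested mouse lungs and sequenced their RNA with the 10x Genomics 3′ kit, in 1 library per group. The control library carried the labels Ccr2-/- (KO), CD45.1+ and no treatment. The library called exposed below carried the labels Ccr2-/- (KO), CD45.3+ and diesel exhaust particles at 500 µg/m³, inhaled by the whole body for 1 hour a day on 5 days a week over 2 weeks. The series design names wild-type C57BL/6J as well as Ccr2-/- mice, and any pooling of animals is not given in the sources used here.

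Transcripts were counted as UMIs (unique molecular identifiers). Ccr2, the monocyte chemokine receptor named as deleted, had 1949 UMIs in control and 5708 in exposed classical monocytes, with a UMI in 91.98% and 97.9% of cells. A 3′ tag outside a deleted part checks nothing, and these counts do not settle the genotype. The control library gave 8940 cells and the exposed library 8690 once filters had been applied and doublets taken out, with 62047730 and 67030914 UMIs over all barcodes. Among kept cells 18 barcodes occurred in both libraries. Cells were clustered without any complement gene, and 3 of 31 clusters stayed unnamed. Comparison was limited to 11 classes that had 50 or more cells on both sides, and a class name means cells like that type.

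Levels are in CPM, the UMIs of a gene per 1000000 UMIs, from the sum over all cells of a class in a library. Values in square brackets are 95% intervals for counting error alone. UMIs of 1 cell are not independent, so these intervals are too narrow where few cells hold most UMIs. A log2 ratio is exposed over control, with 0.5 added to each sum. No test could be made with 1 library on each side: every difference is between 2 libraries, and exposure cannot be told apart from the animals, the CD45 labels, the sort or the run.

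All 8 genes lie on the minus strand of mm10 and are annotated as protein-coding. C1qa (ENSMUSG00000036887, chr4:136895917-136898803), C1qc (ENSMUSG00000036896, chr4:136889804-136893065) and C1qb (ENSMUSG00000036905, chr4:136880129-136886187) sit within 18675 bases with no other annotated gene among them. C3 (ENSMUSG00000024164, chr17:57203970-57228136) and Cfb (ENSMUSG00000090231, chr17:34856374-34862518) share a chromosome. Cfb overlaps Gm20547, a protein-coding gene on the same strand, so reads of these genes may have been split and the Cfb counts are uncertain. The others are Cfp (ENSMUSG00000001128, chrX:20925454-20931555), C3ar1 (ENSMUSG00000040552, chr6:122847138-122856161) and C5ar1 (ENSMUSG00000049130, chr7:16246743-16259540).

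The 250 bases before the start site were taken from RefSeq (GRCm38.p6) for 6 of the 8 genes; C1qa and Cfb had no entry. The GENCODE gene reached 151 bases into the window of C1qc, 202 into that of C5ar1 and 4 into that of C3ar1, so these annotations place the starts differently, and distances below are from the RefSeq start sites. The C1qb and C1qc windows are shown because these neighbours had closely related levels in single cells, and the C3 window because C3 was highest in another cell class. Sequences run 5′ to 3′ on the minus strand, from chr4:136886201-136886450, chr4:136892915-136893164 and chr17:57228137-57228386, and capitals mark a motif match.
C1qb: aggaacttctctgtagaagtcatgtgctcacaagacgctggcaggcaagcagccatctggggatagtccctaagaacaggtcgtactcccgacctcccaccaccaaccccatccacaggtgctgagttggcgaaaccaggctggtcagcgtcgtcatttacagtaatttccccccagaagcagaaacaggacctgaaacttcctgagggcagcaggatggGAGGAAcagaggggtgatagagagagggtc
C1qc: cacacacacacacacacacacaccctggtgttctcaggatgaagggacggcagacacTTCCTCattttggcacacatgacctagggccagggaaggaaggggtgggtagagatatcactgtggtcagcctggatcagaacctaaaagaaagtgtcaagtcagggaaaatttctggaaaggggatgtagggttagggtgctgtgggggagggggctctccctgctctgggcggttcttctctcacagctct
C3: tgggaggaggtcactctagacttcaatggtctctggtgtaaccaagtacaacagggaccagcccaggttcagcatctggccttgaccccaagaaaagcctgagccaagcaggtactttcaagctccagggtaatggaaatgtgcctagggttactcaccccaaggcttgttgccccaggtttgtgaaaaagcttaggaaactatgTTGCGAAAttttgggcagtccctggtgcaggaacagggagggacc
The motifs searched on both strands were GAGGAA (the core bound by the macrophage factor PU.1), TTGCNNAA (C/EBP), TTCNNNGAA (STAT) and the interferon response element. GAGGAA starts 30 bases before the RefSeq start site of C1qb, and on the other strand, as TTCCTC, 193 bases before that of C1qc. Such a match was in 23.3% of 32851 RefSeq windows of the same length. The C3 window holds TTGCGAAA, a form of TTGCNNAA, starting 45 bases before the RefSeq start site, and 9.56% of windows hold that motif. None of the 4 motifs was in the windows of Cfp, C3ar1 and C5ar1; TTCNNNGAA was in 7.02% and the interferon response element in 2.98% of all windows. A match describes letters and is not evidence of binding.

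The 3 C1q chains, Cfp and C3ar1 were highest in interstitial macrophages, the macrophages of the lung tissue outside the air spaces. C3 was highest in classical monocytes, which circulate in blood and can enter tissue, and C5ar1 in neutrophils. Cfb was in classical monocytes and alveolar macrophages at levels whose counting intervals overlapped, with monocytes higher once the libraries were joined. With libraries joined, the class that stood highest was the same for 8 of 8 genes when cells were assigned by detected markers without clustering. In B, T, NK and group 2 innate lymphoid cells no member passed 7.15 CPM except Cfp, which reached 19.2 CPM in B cells.

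**Figure D1:**
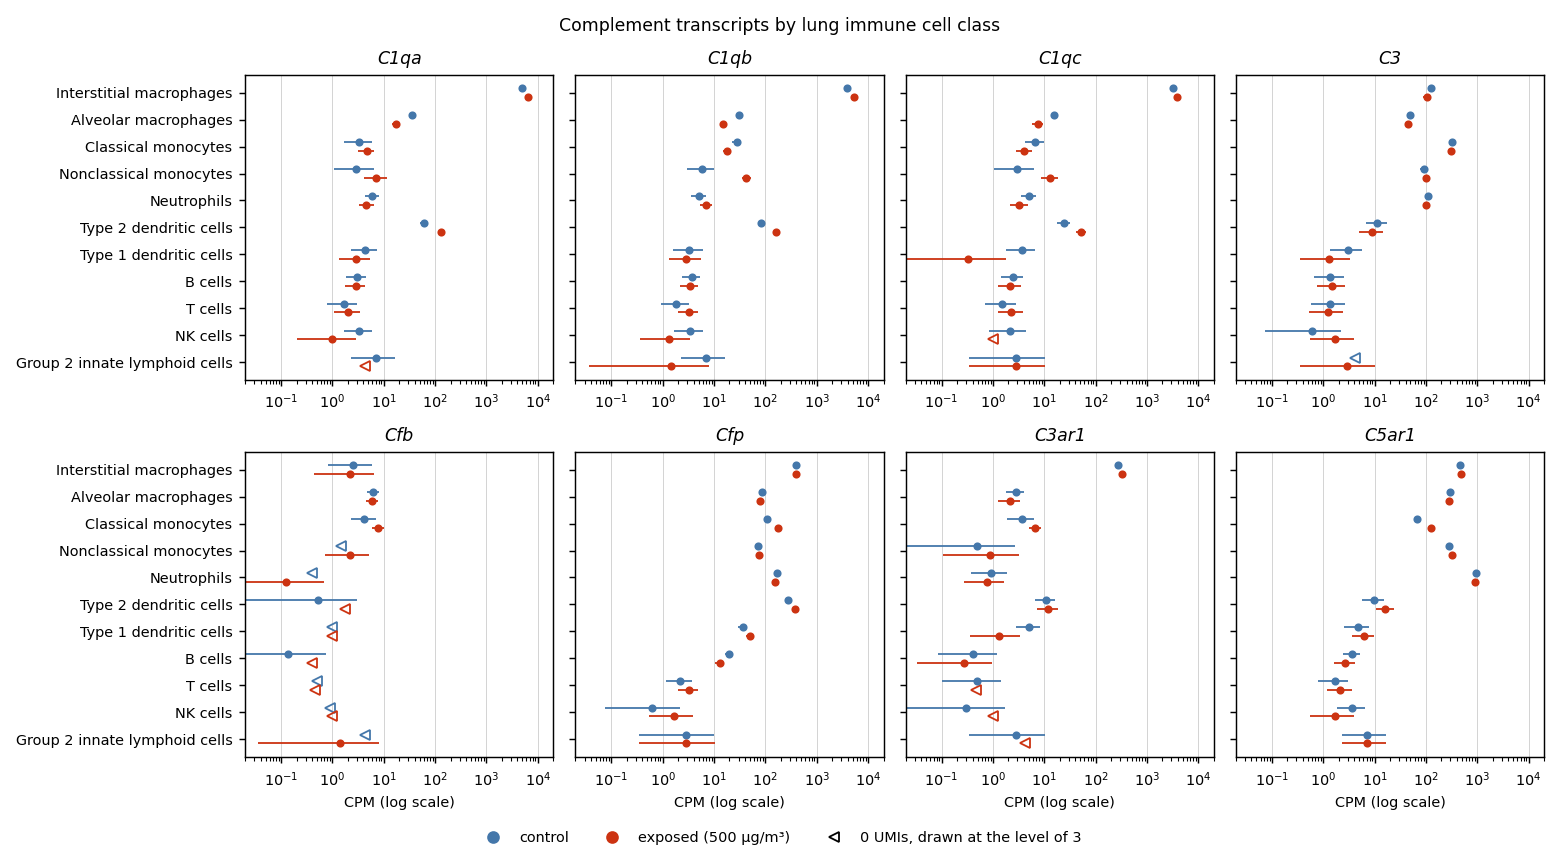
Level of each of the 8 genes (x axis, CPM, log scale) in 11 cell classes (y axis) of the control (blue) and exposed (red) library, with 95% counting intervals, some of which run past the left edge. Open triangles mark 0 UMIs and stand at the level of 3 UMIs. C1qc lies at 3149.9 and 3886 CPM in interstitial macrophages and at no more than 52.7 CPM in any other class shown.

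Interstitial macrophages numbered 160 control and 123 exposed cells, and all 13 of their marker genes were detected in both libraries (19559.5 and 23511 CPM in sum). The class was named by these markers, so their detection is not separate support for the name. C1qa, the A chain, stood at 5019 CPM [4922 to 5119] in control cells and 6474 CPM [6341 to 6609.5] in exposed cells. C1qb, the B chain, was at 3953 and 5239.9 CPM. C1qc, the C chain, was at 3149.9 and 3886 CPM. All 3 chains were higher in the exposed library, with log2 ratios of 0.37 [0.33 to 0.41], 0.41 [0.36 to 0.45] and 0.30 [0.25 to 0.36], under the 1.5-fold (log2 0.58) used as a threshold here.

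Single cells showed the same order. The lower quartile, median and upper quartile of C1qa were 3666, 5636 and 7332 CPM in control cells and 4620.2, 6857 and 8802 CPM in exposed cells, so the cells of both libraries overlapped widely. When the class was clustered again, each chain was higher in the exposed library in 6 of 6 sub-clusters. These sub-clusters come from the same libraries and are not replicates. Cells without C1q were 7 of 21 control and 1 of 9 exposed cells in sub-cluster 5, led by Ptprb, Clec14a and Tek, genes known from endothelium, and 3 of 7 and 0 of 5 in sub-cluster 6. Among cells with 10 or more C1q UMIs each chain was likewise higher in 6 of 6, with 14 and 7 cells in sub-cluster 5 and 4 and 5 in sub-cluster 6. Over all cells, C1qa was lowest in the control library in sub-cluster 4, led by Serpinb2, Prg4 and Alox15, at 2805 CPM against 3474 CPM in the exposed library. Among its cells with 10 or more C1q UMIs the libraries lay close. C1qa was then at 3332 and 3474 CPM, C1qb at 3087 and 3098 CPM and C1qc at 2385 and 2406 CPM. In sub-cluster 3, led by Cd209f, Cd209g and Retnla, C1qa over all cells was at 5288 and 8964 CPM.

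Cells that lacked C1q were more frequent in the control library. No C1q UMI was found in 16 control and 3 exposed cells of the class, and 18 and 6 cells held fewer than 10. Those 18 control cells carried epithelial markers at 27749.7 CPM and the 6 exposed cells fibroblast markers at 43072 CPM, against 22.9 to 30.4 CPM for both lists in the other cells of the class. The 13 interstitial macrophage markers summed to 1522 CPM in the 18 low control cells, where Pf4 and Cd163 were at 0. In the 6 low exposed cells the sum was 2832 CPM, with Folr2 and Lyve1 at 0. Cells with 10 or more C1q UMIs had sums of 21073 CPM (control) and 23974 CPM (exposed). Whether the low cells are interstitial macrophages was not tested. Values for the class include these low cells unless stated. In the 142 and 117 cells with 10 or more C1q UMIs the log2 ratios were 0.28 for C1qa, 0.32 for C1qb and 0.22 for C1qc. C1q itself picked these cells, so leaving out more low cells of the control library had to lower the ratios. Their removal does not show what the difference rests on. Alveolar macrophage markers also differed in the class, at 414 and 884 CPM, and their part in the C1q difference was not tested.

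The 3 chains kept similar proportions. C1qa, C1qb and C1qc made up 41.4%, 32.6% and 25.98% of C1q UMIs in control and 41.5%, 33.6% and 24.9% in exposed interstitial macrophages. Across the 160 control cells, Pearson's r of log2(1 + UMIs per 10000 of the cell) was 0.96 for C1qa with C1qb, 0.97 for C1qa with C1qc and 0.96 for C1qb with C1qc. Across the 123 exposed cells the values were 0.92, 0.89 and 0.86. Spearman's rho, by rank, was lower, at 0.80, 0.85 and 0.77 in the control and 0.80, 0.79 and 0.71 in the exposed library. These levels share the cells, their depth and the cells without any C1q, and are a description. For C1qa with C3ar1, r was 0.59 and 0.41, and for C1qa with C3 it was 0.12 and -0.0133.

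Cells with transcripts of Folr2, Lyve1 or Cd163, known markers of one interstitial macrophage subset, were set beside cells without them. C1qa was at 5497 CPM in 100 such control cells and 4162 CPM in the 60 without, and at 7104 and 5459 CPM in 74 and 49 exposed cells. C3ar1 was at 332 and 182 CPM in the control library and 337 and 299.7 CPM in the exposed library. C5ar1 was at 536 and 325 CPM, then 582 and 320.4 CPM. In the control, cells with fewer than 10 C1q UMIs were 7 of 100 with and 11 of 60 without a marker. In the exposed library they were 2 of 74 and 4 of 49. Marker sums of these low cells, including those of interstitial macrophage markers, are given above. Among cells with 10 or more C1q UMIs, C1qa was at 5684 and 4937 CPM in the control and 7126 and 5759 CPM in the exposed library. C3ar1 was then at 343 and 215 CPM and at 338 and 316 CPM, so its gap was small in the exposed library. C5ar1 was at 552 and 378 CPM and at 584 and 336 CPM. Detecting a marker depends on depth: median UMIs of cells with and without a marker were 11495 and 9541 in the control and 9952 and 10565 in the exposed library.

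**Figure D2:**
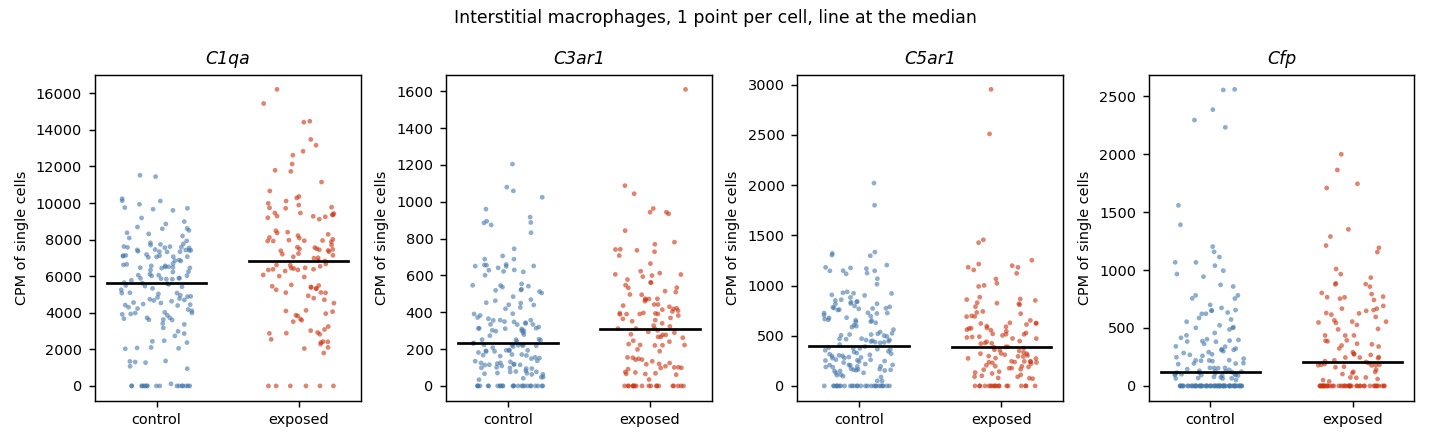
CPM of C1qa, C3ar1, C5ar1 and Cfp (y axes) in each of 160 control and 123 exposed interstitial macrophages, with horizontal scatter for visibility and a line at the median. The C1qa median is 5636 CPM in control and 6857 CPM in exposed cells, and some cells of each library lie at 0.

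Outside interstitial macrophages, C1q was held by a few cells. Type 2 dendritic cells, which present antigen to CD4 T cells, came next: C1qa was at 61.1 CPM [50.5 to 73.3] in their control cells, against 131 CPM [114 to 149] in their exposed cells. C1qb was at 82.9 and 162 CPM and C1qc at 23.9 and 52.7 CPM. The log2 ratios were 1.09 [0.76 to 1.43], 0.97 [0.68 to 1.26] and 1.13 [0.61 to 1.69], each interval beyond 1.5-fold. Yet 8 of 134 control and 11 of 121 exposed cells held 92.1% and 95.5% of the C1q UMIs. Without those cells the log2 ratios were -0.14 [-1.97 to 1.55] for C1qa, 0.99 [-0.19 to 2.31] for C1qb and -0.85 [-3.55 to 1.16] for C1qc. No interval then lay wholly beyond 1.5-fold, though the intervals were wide and the C1qb ratio was no smaller.

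These intervals in type 2 dendritic cells changed with the clustering and weighting. Of 11 other settings of filter, doublets, clustering, gating, weighting and scaling, 7 kept an interval beyond 1.5-fold for C1qa, 5 for C1qb and 6 for C1qc. At a clustering resolution of 0.6 the ratios were 0.54, 0.75 and 0.12, and with complement genes among the variable genes 0.30, 0.39 and -0.71. With each cell weighing the same they were 0.58, 0.43 and 0.66. Without the top cell of each library C1qc was at 0.57.

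These dendritic cells with 10 or more C1q UMIs had type 2 dendritic markers at 3383 and 6997 CPM, with 6 and 7 of 9 detected. Their interstitial macrophage markers were at 805 and 745 CPM with 8 and 9 of 13 detected, and Folr2 and Lyve1 were at 0 in both libraries. Both genes were also at 0 in the other 110 exposed cells of the class, but not in the other 126 control cells. The other type 2 dendritic cells had the macrophage list at 189 and 149.8 CPM, and its part in the C1q difference was not tested. C1qa was mostly in sub-cluster 1, led by Cxcl9 and Dcstamp, at 89.2 and 188 CPM, and sub-cluster 3, at 107 and 448 CPM.

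In alveolar macrophages, the phagocytes of the air spaces, C1q was lower in the exposed library. C1qa was at 35.6 CPM [31.8 to 39.7] in control and 17.1 CPM [14.5 to 19.99] in exposed cells, C1qb at 30.7 and 15.3 CPM and C1qc at 15.7 and 7.47 CPM. The log2 ratios were -1.06, -1.004 and -1.07, all beyond 1.5-fold. Here 6 of 476 control and 5 of 568 exposed cells held 92.3% and 89.1% of the C1q UMIs. Without them the ratios were -0.25 [-1.31 to 0.79] for C1qa, -0.29 [-1.28 to 0.67] for C1qb and -1.59 [-3.49 to -0.17] for C1qc. No interval then lay wholly beyond 1.5-fold, and the C1qc ratio was no smaller. In the largest cluster of the class alone the order was the other way, with C1qa at 4.58 and 13.7 CPM, against 169 and 55.6 CPM in a cluster of 50 and 28 cells with Cd209a among its leading genes. With cells assigned by detected markers the ratios were 0.14, 0.05 and 0.26.

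The alveolar macrophages with 10 or more C1q UMIs had interstitial macrophage markers at 1500.1 and 3168 CPM, with 9 and 11 of 13 detected and Lyve1 at 0 in both libraries. The other cells of the class had them at 175 and 143 CPM, with Lyve1 at 0 in the exposed library. Alveolar macrophage markers were at 3186 and 7089.8 CPM in the C1q cells and 6308 and 6407 CPM in the others. The part of the macrophage list in the C1q difference was not tested.

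Summed over cells, monocytes showed more C1qb than C1qa. Classical monocytes had C1qb at 27.4 CPM [22.1 to 33.7] on the control side and 17.5 CPM [14.6 to 20.8] on the exposed side, while C1qa was at 3.31 and 4.62 CPM. C1qb thus made up 73.4% and 66.8% of the C1q UMIs of the class, against 32.6% and 33.6% in interstitial macrophages. Of the 91 control C1qb UMIs most lay in 2 cells, which held 55 and 23 C1qb with 0 and 2 C1qa UMIs. In 4 of the 5 exposed cells with 10 or more C1q UMIs, C1qb exceeded C1qa. In these cells of both libraries 6 of 13 interstitial macrophage markers were detected, with Folr2, Lyve1, Cd163 and Gas6 at 0. The list summed to 1564 and 4125 CPM in them, against 2381 and 1837 CPM in the other classical monocytes, and its part in the C1qb level was not tested. Lyve1 and Gas6 were also at 0 in the other exposed classical monocytes. More C1qb than C1qa was not limited to monocytes. In type 2 dendritic cells C1qb made up 49.4% and 47.0% of C1q UMIs, and C1qa 36.4% and 37.8%.

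Nonclassical monocytes, which patrol blood vessels, had C1qb at 5.83 CPM [3.01 to 10.2] in the control, against 42.9 CPM [34.7 to 52.4] in the exposed library, a log2 ratio of 2.83 [2.01 to 3.88]. C1qc was at 2.91 and 12.95 CPM, a ratio of 2.06 [0.86 to 3.71], and C1qa at 2.91 and 7.15 CPM, with an interval that includes no difference. Of the 96 exposed C1qb UMIs, 52 and 27 came from 2 cells. Without cells of 10 or more C1q UMIs the C1qb ratio was 0.59 [-0.97 to 2.38] and the C1qc ratio 0.43 [-1.59 to 2.75], and neither interval lay wholly beyond 1.5-fold. With cells assigned by detected markers the ratios were 0.0621 and -0.29. All 10 nonclassical markers were detected in the 3 exposed cells with 10 or more C1q UMIs. Of 13 interstitial macrophage markers 4 were detected there, and Folr2, Lyve1 and Cd163 were among those at 0. In the other 283 exposed cells 11 of 13 were detected, and Folr2 was at 0 there too. Interstitial macrophage markers summed to 3036 CPM in the 3 cells and 2874 CPM in the other exposed cells of the class.

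**Figure D3:**
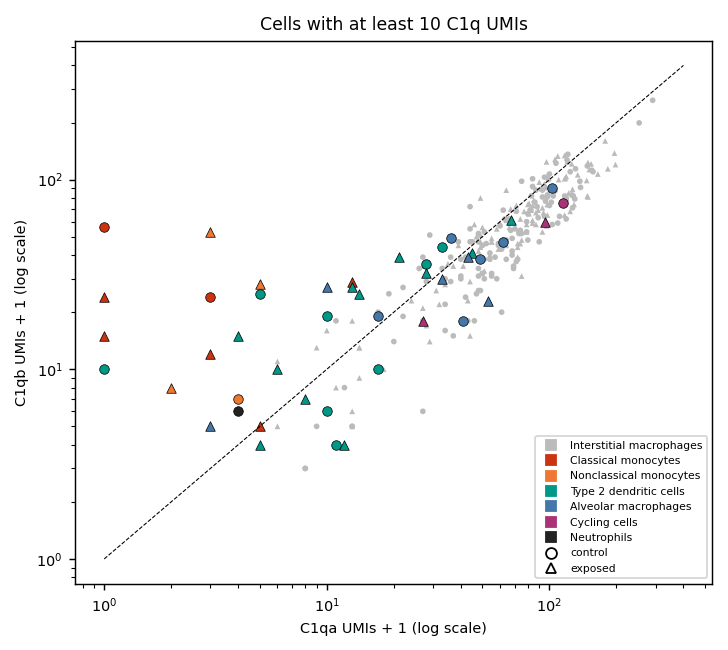
C1qa (x) against C1qb (y) UMIs plus 1, both on log scales, in each cell with at least 10 C1q UMIs, coloured by class and shown for both libraries. The dashed line marks equal counts: C1qb exceeds C1qa in 28 of 142 control and 23 of 117 exposed interstitial macrophages, but in 4 of 5 exposed classical and 3 of 3 exposed nonclassical monocytes. C1qb also exceeds C1qa in 5 of 8 control and 6 of 11 exposed type 2 dendritic cells.

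Neutrophils, B, T and NK cells had C1qa and C1qb at 1.66 to 5.92 CPM in the control and 1.00 to 7.11 CPM in the exposed library. A C1qa UMI was seen in 1.11% and 1.10% of B cells, at medians of 3292 and 3653 UMIs per cell, which serves as the background that free RNA can give. In interstitial macrophages the shares were 89.4% and 95.1%, at medians of 10702 and 10248 UMIs. With cells thinned to 1000 UMIs they were 87.3% and 96.6%, against 0.256% and 0.222% of B cells.

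C3, the central component, was at 321 CPM [302 to 341] in control and 311 CPM [298 to 324] in exposed classical monocytes. The log2 ratio was -0.05 [-0.15 to 0.06], an interval that includes no difference and lies within 1.5-fold. A C3 UMI was seen in 84.8% and 88.5% of these cells, against 0.503% and 0.607% of B cells. At 1000 UMIs the monocyte shares were 25.6% [21.2 to 30.4] and 24.96% [21.5 to 28.7]. Classical monocytes were 4.18% of control and 6.69% of exposed cells but held 36.9% and 57.8% of the C3 UMIs.

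Interstitial macrophages, neutrophils and nonclassical monocytes followed for C3, with intervals that overlapped from each to the next. They were at 124 and 103 CPM, 109 and 99.5 CPM and 90.8 and 99.6 CPM. Alveolar macrophages were at 48.1 and 44.9 CPM and type 2 dendritic cells at 11.2 and 8.98 CPM. In no class did the C3 interval lie beyond 1.5-fold. Within interstitial macrophages C3 was uneven: 33.8% and 29.3% of cells had a UMI, and the 2 highest control cells held 50 of 248 UMIs.

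Cfb, the alternative pathway protease, was the scarcest member with 209 UMIs in all kept cells. Alveolar macrophages had 6.21 and 6.02 CPM (56 and 54 UMIs). Classical monocytes had 4.22 CPM [2.31 to 7.08] and 7.74 CPM [5.86 to 10.03] (14 and 57 UMIs), and with libraries joined both classes overlapped within their counting intervals. The monocyte log2 ratio of 0.84 [0.01 to 1.83] did not pass 1.5-fold. The highest Cfb level was in monocyte sub-cluster 9, led by the interferon-induced genes Ifit2, Ifit3 and Ifit1, at 38.2 and 29.4 CPM in 16 cells of each library. There 1 UMI corresponds to 6.36 CPM in the control, and 5 UMIs to 29.4 CPM in the exposed library. Those Cfb levels thus rest on few UMIs. T, NK and type 1 dendritic cells had 0 Cfb UMIs in both libraries, which in T cells allows up to 0.499 and 0.457 CPM.

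Cfp, which encodes properdin, was spread over many myeloid classes. Interstitial macrophages were at 392 CPM [365 to 420.00] and 387 CPM [355 to 422], a log2 ratio of -0.02 [-0.18 to 0.14]. The level was uneven within them: 62.5% and 66.7% of cells had a Cfp UMI. Sub-cluster 3, with the Cd209f and Retnla cells, had 738 and 676 CPM, against 101 and 191 CPM in sub-cluster 1. High Cfp was not limited to sub-cluster 3: the highest single cell of each library, at 2559 and 1999 CPM, lay in sub-cluster 4.

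Type 2 dendritic cells came next for Cfp, with 270.5 CPM [247 to 295] in control and 373 CPM [344 to 403] in exposed cells. The log2 ratio was 0.46 [0.29 to 0.64], and Cfp was higher in the exposed library in 4 of 4 sub-clusters. Unlike C1q, it was seen in most of these cells, 81.3% and 90.1%. Neutrophils had 172 and 157 CPM, alveolar macrophages 86.2 and 78.5 CPM, nonclassical monocytes 72.8 and 76.4 CPM and type 1 dendritic cells 36.3 and 49.4 CPM.

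Classical monocytes had Cfp at 107 CPM [95.8 to 118] on the control side and 174 CPM [164 to 183] on the exposed side. The log2 ratio was 0.70 [0.53 to 0.88], so the lower bound fell short of 1.5-fold; without the top 5 cells of each library it was 0.78 and passed. Cfp was detected in 46.3% and 70.7% of these monocytes, whose median depths were 8756 and 12339 UMIs. Thinned to 1000 UMIs, 8.36% [5.75 to 11.7] and 14.97% [12.2 to 18.1] had a Cfp UMI. B cells had 4.63% and 3.64%, and 1.59% and 0.776% when thinned. Their Cfp level, at 19.2 and 12.9 CPM, exceeded that of T cells, at 2.16 and 3.20 CPM. These B cell shares are therefore not taken as a free-RNA background for Cfp.

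B cells themselves were not uniform for Cfp. The cluster led by Iglc1, Fam129c and Igkc had 50.2 and 38.4 CPM, against 4.23 and 3.70 CPM in the larger cluster led by Ighd, Fcer2a and Cr2. Plasmacytoid dendritic cells, with 24 and 28 cells too few to compare, had 117 and 129 CPM.

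C3ar1, the receptor for C3a, was far higher in interstitial macrophages than in the other compared classes. It was at 278 CPM [256 to 302] in control and 322 CPM [293 to 354] in exposed cells, 26.3-fold above the next class, type 2 dendritic cells (10.6 and 11.97 CPM), with libraries joined. The log2 ratio in interstitial macrophages was 0.21 [0.03 to 0.40], and the exposed level was higher in 5 of 6 sub-clusters. A C3ar1 UMI was seen in 84.4% and 84.6% of these cells, against 0.151% and 0.110% of B cells. At 1000 UMIs the macrophage shares were 28.7% [21.7 to 36.4] and 22.7% [15.5 to 31.3], from which no order is read.

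Classical monocytes had C3ar1 at 3.62 and 6.65 CPM (12 and 49 UMIs) and alveolar macrophages at 2.77 and 2.12 CPM, with ratio intervals that include no difference. Neutrophils, which carried the most C5ar1, had only 7 and 6 C3ar1 UMIs. Basophils and mast cells, too few to compare, had 31.03 and 62.7 CPM on 1 and 6 UMIs.

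C5ar1, a receptor for the attractant C5a, was at 935 CPM [913 to 957] in control and 909 CPM [888 to 930.2] in exposed neutrophils. The log2 ratio was -0.04 [-0.09 to 0.01], and 59.99% and 58.00% of all C5ar1 UMIs came from these cells. A C5ar1 UMI was seen in 85.8% and 87.6% of neutrophils, and in 57.6% and 58.6% at 1000 UMIs. The neutrophil cluster led by Csf1, Acod1 and Il23a had 1084 and 1111 CPM, and the cluster led by Retnlg had 769 and 746 CPM. The small cluster led by Camp, Ngp and Ltf, granule genes of immature neutrophils, had 545 and 370.5 CPM in 13 and 26 cells.

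Interstitial macrophages were next for C5ar1, at 461 CPM [431 to 492] and 482 CPM [446 to 519.8]. Alveolar macrophages had 290.2 and 288 CPM, with a log2 ratio of -0.01 [-0.09 to 0.07]. Nonclassical monocytes had 286 and 319 CPM, and with libraries joined their interval overlapped that of alveolar macrophages. Of the 2 nonclassical clusters, 1 had 454 and 526 CPM and the other 100.2 and 141 CPM. Neutrophil markers summed to 33685 and 31988 CPM in nonclassical monocytes. At the C5ar1 to S100a8 ratio of neutrophils, the S100a8 level of the class corresponds to 174 and 147 CPM of C5ar1.

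Between the libraries, C5ar1 differed beyond 1.5-fold in classical monocytes. It was at 66.9 CPM [58.4 to 76.3] in control and 128 CPM [119 to 136] in exposed cells, on 222 and 939 UMIs. The log2 ratio was 0.93 [0.72 to 1.15], and this was the only pair of a member and a compared class outside C1q with an interval beyond 1.5-fold. A C5ar1 UMI was seen in 30.7% and 54.7% of these cells, and at 1000 UMIs the shares overlapped, at 7.01% [4.63 to 10.1] and 8.26% [6.15 to 10.8]. Neutrophil markers in the class were at 887 and 1729 CPM, all 12 detected in both libraries. At the C5ar1 to S100a8 ratio of neutrophils this corresponds to 2.48 and 8.04 CPM of C5ar1, and at the ratio to Retnlg to 2.92 and 1.97 CPM.

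The C5ar1 difference went with the makeup of the monocytes. Sub-clusters 4, 5 and 6 held 139, 134 and 68 exposed but 3, 4 and 0 control cells, and their exposed C5ar1 levels were 176, 149 and 159 CPM. Among the 6 sub-clusters with at least 10 cells of each library, C5ar1 was higher in the exposed library in 3 and lower in 3. Without sub-clusters 4 to 6 the log2 ratio was -0.29. Since the makeup by library picked out those sub-clusters, their removal does not show what the difference rests on. With doublets kept the ratio was 0.69, no longer beyond 1.5-fold.

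The same 3 sub-clusters had exposed Cfp at 144, 200.2 and 293 CPM and C3 at 248, 316 and 362 CPM. Sub-cluster 6, led by Wfdc21, Lcn2 and S100a8, thus had the highest Cfp of the class. Without sub-clusters 4 to 6 the Cfp ratio was 0.23, and Cfp was higher in the exposed library in 5 of the other 6. C3 was higher in 3 and lower in 3 of them.

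**Figure D4:**
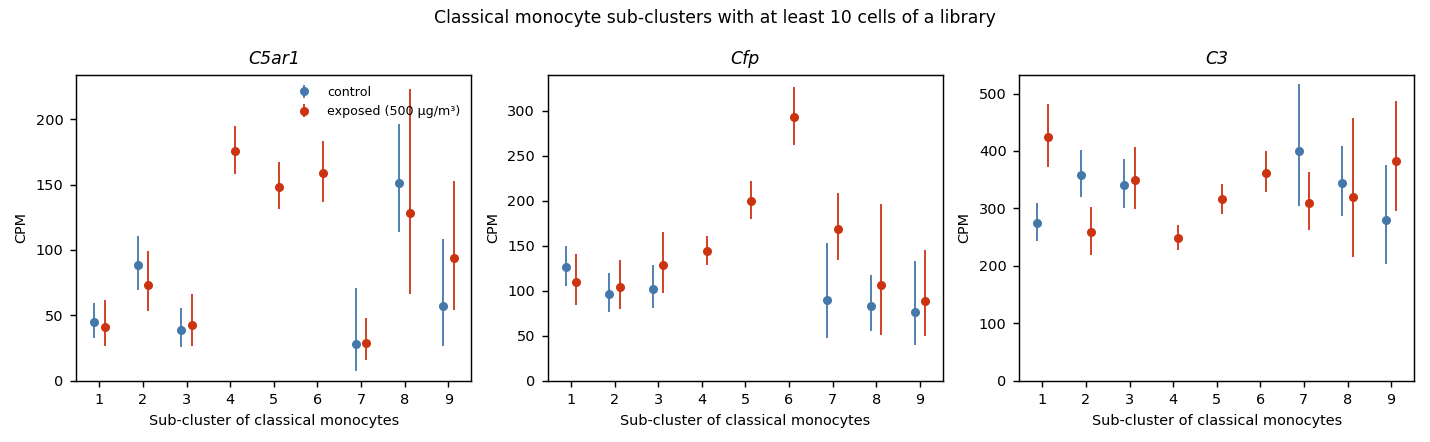
CPM of C5ar1, Cfp and C3 (y axes) in 9 sub-clusters of classical monocytes, for the control (blue) and exposed (red) library, with 95% counting intervals and only where a library has at least 10 cells. Sub-clusters 4, 5 and 6 have exposed points only, with C5ar1 at 176, 149 and 159 CPM.

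Over all members and classes, 56 of 88 pairs had at least 20 UMIs summed over the libraries and were counted, and 9 of these had an interval wholly beyond 1.5-fold, against 1.4% of 99419 gene and class pairs over the whole table. Of the 9 pairs 6 were higher in the exposed library (background 0.4%) and 3 lower (0.998%). All but C5ar1 in classical monocytes were C1q chains outside interstitial macrophages, held by the few cells described above. The C1q chains of a class share those cells and are not separate observations. Without the top 5 cells of each library 4 of the 9 pairs stayed beyond 1.5-fold: C1qa and C1qb in type 2 dendritic cells, C1qc in alveolar macrophages and C5ar1 in classical monocytes. Cfp in classical monocytes joined them, among 40 counted pairs.

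By class, the members beyond 1.5-fold were 3 of 7 counted in type 2 dendritic cells (all higher, backgrounds 0.382% higher and 1.21% lower). They were 3 of 8 in alveolar macrophages (all lower, 0.0741% and 1.55%). They were 2 of 6 in nonclassical monocytes (both higher, 0.331% and 0.306%) and 1 of 8 in classical monocytes (higher, 1.36% and 1.39%). There were 0 of 7 in interstitial macrophages (0.39% and 2.75%) and 0 of 6 in neutrophils (0.644% and 1.09%). There were also 0 of 6 in B cells (0.106% and 0.384%), 0 of 5 in T cells (0.15% and 0.5%) and 0 of 3 in type 1 dendritic cells (0.443% and 1.01%). NK cells (0.107% and 0.193%) and group 2 innate lymphoid cells (0.573% and 0.465%) had no counted member.

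The median log2 ratio of the counted members is given for each class beside the median over all genes and, in brackets after it, the share of all genes that was higher in the exposed library. It was 0.74 (6 of 7 higher) in type 2 dendritic cells against -0.09 (41.1%), 0.69 (6 of 6 higher) in nonclassical monocytes against -0.06 (43.7%) and 0.57 (5 of 8 higher) in classical monocytes against -0.05 (45.02%). In T cells it was 0.55 (5 of 5 higher) against -0.13 (33.3%), in type 1 dendritic cells 0.39 (2 of 3 higher) against -0.01 (48.5%) and in interstitial macrophages 0.21 (5 of 7 higher) against -0.04 (45.4%). The T cell members had only 9 to 21 UMIs each in a library, at 1.50 to 3.20 CPM. Each of their ratio intervals includes no difference, so no order is read there. In alveolar macrophages it was -0.26 (0 of 8 higher) against -0.05 (41.4%), in neutrophils -0.13 (1 of 6 higher) against -0.10 (37.9%) and in B cells -0.14 (1 of 6 higher) against -0.14 (29.6%). The C1q chains of a class, which share cells, are among these members.

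**Figure D5:**
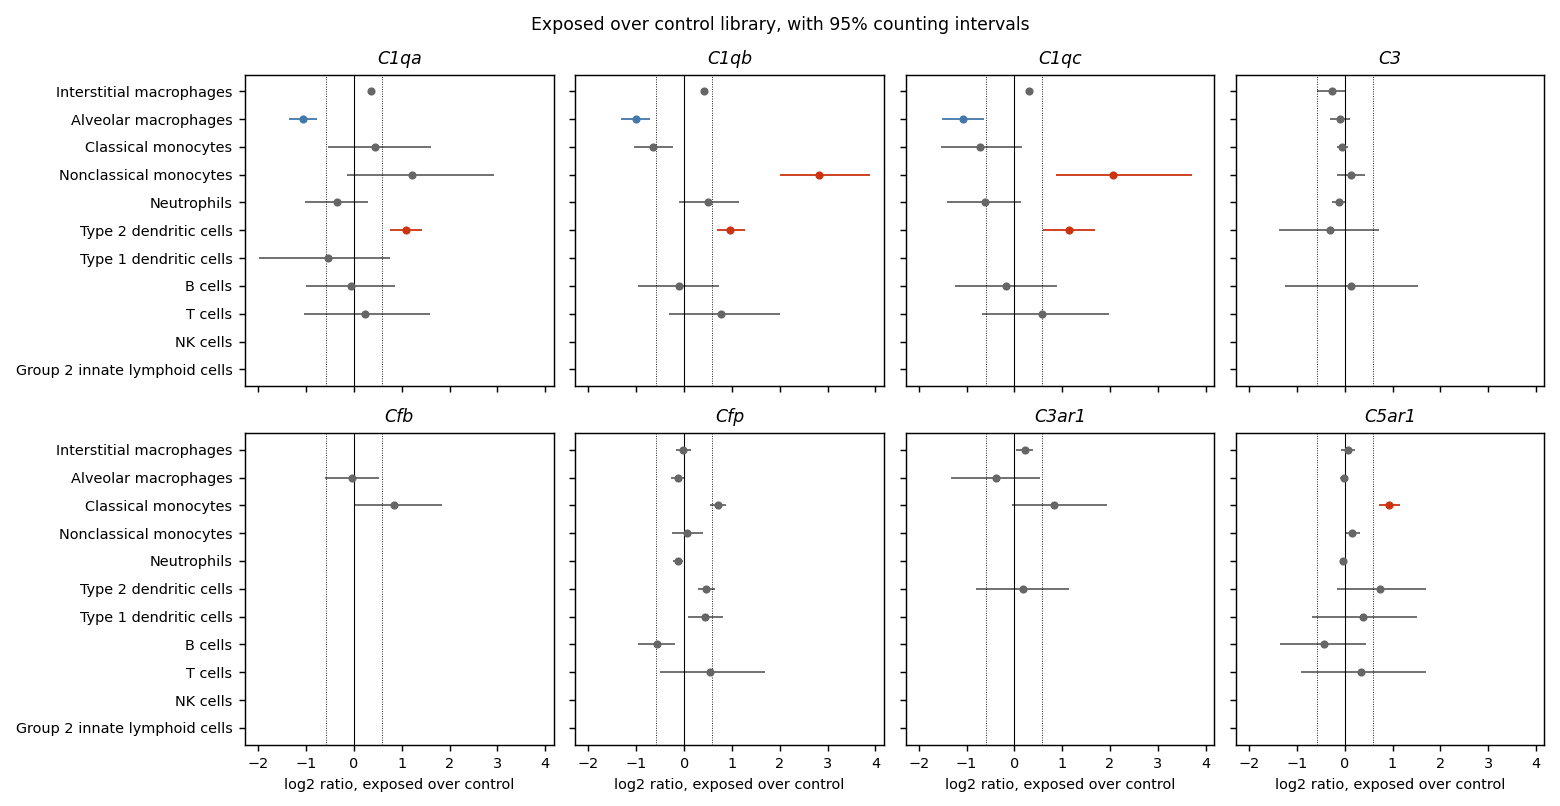
Log2 ratio of the exposed over the control library (x axis) for the 56 counted pairs of a gene and a class (y axis), with 95% counting intervals. Dotted lines mark 1.5-fold; red and blue points have intervals wholly beyond it, as for C1qb in nonclassical monocytes at 2.83 and C1qa in alveolar macrophages at -1.06.

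Other genes of the pathway came from a list of 45, of which 44 were in the table. Most plasma components were scarce, with 1 Cfd UMI (factor D) in all kept cells and 0 for Mbl1, Mbl2, C8a, C8b and Cfi. The best represented in each role were C4b (639 UMIs) and C1ra (267) of the classical pathway, Fcna (453) and Colec12 (338) among lectin-type recognition proteins, and Hc (40), the gene of C5, and C8g (37) of the terminal pathway. Among regulators and receptors they were Cd55 (10477) and Cr1l (7998), which protect cells from complement, and Calr (44155), a binding partner of C1q, and Itgb2 (32780), a chain of the C3 fragment receptors. C4b, Fcna and Vsig4 were highest in interstitial macrophages, as C1q was. C5ar2, the other C5a receptor, was highest in neutrophils, as C5ar1 was, at 63.4 and 65.5 CPM.

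Of the 19 listed genes counted in interstitial macrophages, 1 was beyond 1.5-fold higher and 4 lower in the exposed library. Over all genes counted in the class these shares were 0.39% and 2.75%. C4b, a substrate of the classical pathway, was at 203 and 82.2 CPM (404 and 114 UMIs, log2 ratio -1.30) and Fcna, a ficolin, at 182 and 34.6 CPM (364 and 48 UMIs, -2.38). Vsig4, a C3b receptor of resident macrophages, was at 42.1 and 3.61 CPM on 84 and 5 UMIs. The 5 highest control cells held 60.6% of C4b, 81.6% of Fcna and 94.05% of Vsig4 UMIs. Without the 5 highest cells of each library C4b was at 84.1 and 22.97 CPM and Fcna at 36.1 and 10.7 CPM, so both were still lower in the exposed library. The order was not the same in all sub-clusters. C4b was higher in the exposed library in sub-cluster 1 (4.19 and 15.5 CPM) and 2 (53.0 and 65.5 CPM). It was lower in sub-clusters 3 to 6, with 653 and 153 CPM in sub-cluster 4. Fcna was at 938 and 111 CPM in sub-cluster 3 but at 67.0 and 72.6 CPM in sub-cluster 4. Clu (37 and 3 UMIs, lower) and Serping1 (13 and 29 UMIs, higher) came mostly from the cells with fewer than 10 C1q UMIs, which held 36 of the 37 control Clu and 28 of the 29 exposed Serping1 UMIs. Only 2 exposed cells had a Serping1 UMI, and those 28 UMIs lay in 1 cell.

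In classical monocytes C4b was higher in the exposed library, beyond 1.5-fold. It was at 1.21 and 9.78 CPM (4 and 72 UMIs, log2 ratio 2.86), with a UMI in 26 exposed cells. Of the 72 exposed UMIs, 63 lay in sub-clusters 4 to 6, which held 3, 4 and 0 control cells. In sub-cluster 3 C4b was at 4.15 and 4.27 CPM, and in sub-cluster 9, the one with the Ifit genes, at 6.36 and 29.4 CPM on 1 and 5 UMIs. In type 1 dendritic cells 1 of 8 listed genes was beyond 1.5-fold (backgrounds 0.443% higher and 1.01% lower). This was Cd55, lower at 16.6 and 6.46 CPM (50 and 20 UMIs, -1.34). Its UMIs lay in 24 control and 9 exposed cells, and 27 and 4 UMIs were left without the 5 highest cells of each library. Cd55 was highest in B cells, at 574 and 549 CPM, and any part of their RNA here was not tested.

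Genes with the most similar levels over the 11 classes were found by Pearson's r of log2(CPM + 1) among 9284 genes with at least 500 UMIs. These values share the same cells and libraries and are a description only. For the mean of the C1q chains they were Cd163 (0.95), Pmp22, Fcrls, Fxyd2 and Gas6 (0.92). For C3 they were Mtus1 (0.98), Hacd4 and Igsf6, and for Cfb Gab1 (0.96), Plcb1 and Chil3. For Cfp they were Wfdc17 (0.96), Pirb and Ehd1, for C3ar1 Pmp22 (0.96), Ccl2 and Fxyd2, and for C5ar1 Slpi (0.99), C5ar2 and Rab20 (0.97). Cd163, Fcrls and Gas6 were also among the markers used to name interstitial macrophages.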

How the data were processed

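RNA of single CD45+ lung cells was measured in 1 control and 1 exposed library. The deposited tables hold raw UMI counts per gene and barcode, made with Cell Ranger (3.1.3 per the submitters' processing notes, 3.1.0 per the file headers) against mm10. Gene positions came from GENCODE M21, matched by identifier for 30934 genes.

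Barcodes with at least 500 UMIs, 200 genes and at most 10% mitochondrial UMIs were kept, and 751 control and 706 exposed barcodes were removed as scored doublets (simulated doublets among neighbours, 0.8% per 1000 cells). Counts scaled to 10000 per cell gave 2000 variable genes, without 52 complement genes, and 30 principal components. A graph of 20 neighbours was clustered with leidenalg 0.10.2 at resolution 1. Names went to clusters with 3 or more markers of a class among 50 leading genes, unless another class led the first 10 or clearly outnumbered it. Python 3.11.15, numpy 2.4.6 and scipy 1.17.1 were used.

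UMIs were summed per class and library. Levels have exact Poisson, shares exact binomial (Clopper-Pearson) and ratios exact conditional binomial 95% intervals. A pair counted as beyond 1.5-fold where its whole interval lay past that fold, among genes with at least 20 summed UMIs. The method was tested on simulated data with known folds. Shares were recomputed with cells thinned to 1000 UMIs. A count of 0 is given the level of 3 UMIs as its limit. Intervals and limits cover counting error only.

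The 8 members, the pathway list and the markers were chosen with earlier results of these data known. All members are described in each class. From the list the 2 genes with most UMIs per role are named, and per class up to 2 higher and 2 lower beyond 1.5-fold. Clu, the genes at 0, C5ar2 and the clusters and sub-clusters named were picked after their values were seen. Alternatives covered cell filter, doublets, clustering, gates, weighting, top cells, scaling and free-RNA subtraction. A gene of the pathway list is not reported here.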

Additional observations from a re-analysis of the deposited data

Results flagged for a closer look

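C1q chains differed in opposite directions between the libraries in different classes, with the few cells that hold them described above. The log2 ratio of C1qa was 1.09 in type 2 dendritic cells and -1.06 in alveolar macrophages. For C1qb it was 2.83 in nonclassical monocytes, 0.97 in type 2 dendritic cells and -1.004 in alveolar macrophages. For C1qc it was 2.06, 1.13 and -1.07 in the same classes. C4b was at 2.86 in classical monocytes and -1.30 in interstitial macrophages. With 1 library per group the difference between classes was not tested. Outside the compared classes, C5ar1 in plasmacytoid dendritic cells had a log2 ratio of 2.68, on 2 UMIs in 24 control and 20 UMIs in 28 exposed cells (8.66 and 67.8 CPM), 16 of the 20 in 2 cells.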

How the results depend on the processing

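No paired analysis was possible because each group has 1 library. Depth and cell number limit the pairs of a gene and a class, of which 32 of 88 had under 20 UMIs. Of 121 values for the highest class of each member, for the count of pairs and for the order of classes under the alternatives, 103 kept within their counting interval or 1.5 times the count; of the other 648, 550 did and 11 turned. In interstitial macrophages the log2 ratios of C1qa and C1qb (0.37 and 0.41) were 0.31 and 0.35 with complement genes among the variable genes, 0.27 and 0.30 with doublets kept, 0.43 and 0.48 with per-cell marker gates and 0.28 and 0.32 in cells with 10 or more C1q UMIs, an alternative chosen after seeing the data, as are those on top 5 cells, cells of 10 or more C1q UMIs, single clusters and sub-clusters. C1qb was 0.47 with each cell weighing the same. C1qc (0.30) was 0.21 with doublets kept and 0.22 in cells with 10 or more C1q UMIs. Cfp there (-0.02) was -0.19 with doublets kept, -0.24 with each library clustered alone and 0.17 with each cell weighing the same. Cfb in classical monocytes (0.84) was -0.0021 without the sub-clusters of under 10 control cells, and C5ar1 in neutrophils (-0.04) was 0.049 with median-of-ratios scaling. That scaling moved the median of all genes by 0.14 in B cells and 0.13 in T cells, and by under 0.1 elsewhere. The 9 pairs beyond 1.5-fold became 5 with complement genes among the variable genes, all of them among the 9, and 5 without the top 5 cells of each library, of which 4 were among the 9. With marker gates C1qb in nonclassical monocytes (2.83) was 0.0621. Values that turned were C1qa, C1qb and C1qc in alveolar macrophages with marker gates (0.14, 0.050 and 0.26) and in the largest cluster only (1.56, 1.08 and 0.78), C1qc in nonclassical monocytes with gates (-0.29), C1qa (-0.14) and C1qc (-0.85) in type 2 dendritic cells without cells of 10 or more C1q UMIs, C1qc there with complement genes among the variable genes (-0.71), and C5ar1 in classical monocytes without the sub-clusters of under 10 control cells (-0.29). Leaving out cells or sub-clusters removes the UMIs themselves; for the other alternatives the cause was not tested.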
